A study of Mus musculus with 15 samples.

Results

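The 10 chemokine genes Cxcl13, Cxcl12, Cxcl16, Cx3cl1, Cxcl1, Cxcl2, Cxcl5, Ccl20, Ccl2 and Cxcl10 were followed through an organoid migration experiment in mouse mammary epithelium. They were chosen by name from the 54456 genes of the deposited count table, with earlier results of these data known. All 10 were found and were among the 18140 genes with enough counts to be tested. The groups were organoids with beads soaked in the fibroblast growth factor FGF10 at 36 h, beads soaked in bovine serum albumin (BSA), the control protein, at 36 h, FGF10 beads at 72 h, BSA beads at 72 h, and organoids at 0 h. Each group held 3 RNA libraries, and total counts ran between 11965322 and 24261233 per library. All organoids came from wild-type (WT) mouse mammary gland and were kept in the same DMEM/F12 medium with L-Ala-Gln, ITS (an insulin, transferrin and selenium supplement) and P/S. The titles of the FGF10 72 h libraries spell the factor FGF0, while their treatment label says FGF10, which was followed. Strain, age and the number of animals are not given in the sources used here, and nothing states that libraries of a group came from separate cultures, so p-values measure the spread between these libraries, which may be technical. BSA 72 h libraries 2_1 and 2_2 share a replicate number. They were the closest pair of any group, with a mean chi-square of 4.32 per gene against 9.58 for the next, and the labels do not say whether they are separate samples. Since they still differed beyond sampling noise they were counted as labelled. Values with both summed into 1 library are given for the members called with FGF10 against BSA at 72 h. They are also given where summing took a member's call away, and for some lists of other genes at 72 h.

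Chemokines are small secreted or shed proteins that draw cells along a gradient by binding G protein-coupled receptors on the target cell. CXCL13 binds CXCR5 and draws B cells, and CXCL12 binds CXCR4 and the scavenging receptor ACKR3 and guides many migrating cells. CXCL16 and CX3CL1 are made as membrane-bound proteins that can be shed, and bind CXCR6 and CX3CR1. CXCL1, CXCL2 and CXCL5 draw neutrophils through CXCR2, CCL20 draws cells bearing CCR6, CCL2 draws monocytes through CCR2, and the interferon-inducible CXCL10 draws T cells through CXCR3. FGF10 is made by the mammary mesenchyme and signals to the epithelium, where it promotes outgrowth of the gland.

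On the mouse assembly GRCm39, 5 of the members lie on chromosome 5. Cxcl5 spans chr5:90907219-90909483, Cxcl1 spans chr5:91039100-91040974 and Cxcl2 spans chr5:91051730-91053797, all on the plus strand. Cxcl10 spans chr5:92494497-92496748 on the minus strand and Cxcl13 spans chr5:96104810-96108927 on the plus strand. The others are Cxcl12 at chr6:117145496-117158328 (+), Ccl20 at chr1:83094487-83096888 (+), Cxcl16 at chr11:70344809-70350810 (-), Ccl2 at chr11:81926397-81928279 (+) and Cx3cl1 at chr8:95498637-95509055 (+). Values cover all annotated exons of each gene.

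Promoters are shown because kappa B sites, bound by the NF-kappa B factors that drive inflammatory genes, are well known in chemokine promoters. The part of such sites in the changes of the members was not tested. RefSeq promoters (assembly GRCm38.p6, 250 bases before and 50 after the annotated start) were found for 7 of the 10 members, by symbol. None was found for Cxcl5, Cxcl16 and Ccl2. Those of Cxcl1 at chr5:90890995-90891294 (+ strand), Cxcl2 at chr5:90903649-90903948 (+ strand), Ccl20 at chr1:83116516-83116815 (+ strand), Cxcl10 at chr5:92348840-92349139 (- strand) and Cxcl13 at chr5:95956689-95956988 (+ strand) are printed along the strand of the gene. Capitals mark matches to the degenerate kappa B consensus on either strand, overlapping matches merged.
Cxcl1: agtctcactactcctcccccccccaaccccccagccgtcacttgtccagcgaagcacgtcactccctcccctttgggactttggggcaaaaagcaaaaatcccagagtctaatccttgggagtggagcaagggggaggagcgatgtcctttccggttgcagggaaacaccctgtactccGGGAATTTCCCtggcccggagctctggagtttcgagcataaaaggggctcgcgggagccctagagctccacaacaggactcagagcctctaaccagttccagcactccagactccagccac
Cxcl2: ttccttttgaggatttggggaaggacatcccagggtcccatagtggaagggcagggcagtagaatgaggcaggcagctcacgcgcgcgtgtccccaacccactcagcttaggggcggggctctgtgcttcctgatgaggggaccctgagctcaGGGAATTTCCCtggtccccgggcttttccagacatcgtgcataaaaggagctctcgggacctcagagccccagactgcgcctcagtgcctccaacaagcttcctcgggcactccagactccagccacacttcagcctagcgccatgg
Ccl20: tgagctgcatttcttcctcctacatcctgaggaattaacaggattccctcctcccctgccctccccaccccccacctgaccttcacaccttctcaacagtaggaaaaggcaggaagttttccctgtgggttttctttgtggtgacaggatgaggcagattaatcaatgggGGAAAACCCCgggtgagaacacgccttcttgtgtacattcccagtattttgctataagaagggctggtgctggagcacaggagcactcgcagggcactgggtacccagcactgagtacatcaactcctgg
Cxcl10: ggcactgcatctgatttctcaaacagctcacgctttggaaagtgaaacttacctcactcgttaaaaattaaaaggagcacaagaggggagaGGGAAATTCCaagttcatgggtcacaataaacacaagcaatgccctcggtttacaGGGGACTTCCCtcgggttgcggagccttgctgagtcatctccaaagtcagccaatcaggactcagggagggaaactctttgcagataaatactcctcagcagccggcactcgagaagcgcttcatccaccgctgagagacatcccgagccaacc
Cxcl13: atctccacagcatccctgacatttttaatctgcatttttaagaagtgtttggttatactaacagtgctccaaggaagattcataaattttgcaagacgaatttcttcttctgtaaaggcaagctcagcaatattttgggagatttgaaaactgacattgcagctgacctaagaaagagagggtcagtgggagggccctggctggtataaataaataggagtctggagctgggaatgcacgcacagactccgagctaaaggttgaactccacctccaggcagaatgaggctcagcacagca
The kappa B consensus was present in 4 of the 7 promoters and in 8.46% of all 32851 promoters of the same length. With the start base as position 0, overlapping matches began at -71 and -70 in Cxcl1, and at -97 and -96 in Cxcl2. Ccl20 held 1 match, at -80, and Cxcl10 held matches at -159, -104 and -103. The promoters of Cxcl13, Cxcl12 and Cx3cl1 held none, which says only that these letters are not in those windows. A core of the interferon-stimulated response element, TTTCNNTTTC, was found at -213 in Cxcl10 and in 3.44% of all promoters. TATAAA stood at -46 in Cxcl13 and at -6 in Cx3cl1, and in 13.6% of all promoters. Both strands were searched, and a match describes the letters, not a used site.

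The organoids carried the markers of their labelled cell type, and also RNA of other cell types. The summed level of 10 mammary epithelial markers (among them Epcam, Krt8, Krt5 and Krt14) was 25390 to 31050 CPM in FGF10 libraries and 18250 to 25760 CPM in BSA libraries at 36 h, 31190 to 36630 CPM in FGF10 and 17320 to 19040 CPM in BSA libraries at 72 h, and 28950 to 39650 CPM at 0 h. CPM scales each count to the size of its library, so levels can be set side by side between libraries. No epithelial marker was at 0 in any group. The share of counts from mitochondrial genes was 3.97%, 3.6% and 1.11% with FGF10 and 3.43%, 2.02% and 2.59% with BSA at 36 h. The 72 h shares were 4.55%, 4.49% and 3.9% with FGF10, all above the 2.55%, 2.21% and 2.6% with BSA, and its part in the 72 h differences was not tested.

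Cxcl13 was far lower with FGF10 beads than with BSA beads at both times. At 36 h its level was 0.784, 0.713 and 1.58 CPM in the FGF10 libraries, against 12.5, 52.3 and 31.6 CPM in the BSA libraries. At 72 h it was 28.9, 31.1 and 8.41 CPM in the FGF10 libraries, against 271, 252 and 196 CPM in the BSA libraries. Every FGF10 library lay below every BSA library of its time. By edgeR's quasi-likelihood test with Benjamini-Hochberg adjustment over all tested genes, the log2 difference was -4.97 ± 0.73 at 36 h (SE, adjusted p = 0.00714), a level 31.4-fold lower with FGF10. At 72 h it was -3.40 ± 0.60 (adjusted p = 0.0111), 10.5-fold lower. With BSA 72 h libraries 2_1 and 2_2 summed, the 72 h difference was -3.33 (adjusted p = 0.0419). The 0 h libraries had 0.591, 0.0968 and 0 CPM, the last with no counts, so Cxcl13 was almost undetected at 0 h.

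Cxcl12 was also lower with FGF10 beads. At 36 h its level was 12.5, 25.7 and 15.7 CPM with FGF10, against 32.5, 255 and 225 CPM with BSA, and the lowest BSA library, replicate 1, stood close to the FGF10 libraries. The 72 h levels were 157, 188 and 91.6 CPM with FGF10, against 339, 347 and 380 CPM with BSA. The groups did not overlap at either time. The log2 difference of -3.25 ± 0.63 at 36 h passed the edgeR test (adjusted p = 0.0234), and that of -1.29 ± 0.58 at 72 h did not (adjusted p = 0.207). The call at 36 h was lost when BSA 36 h replicate 2 or 3, or FGF10 36 h replicate 1 or 4, was left out (adjusted p = 0.0662 to 0.0888, log2 difference -3.16 to -2.84). It was also lost with only the 36 h groups fitted (edgeR, adjusted p = 0.0927). Without BSA 36 h replicate 1 the difference at 72 h passed (adjusted p = 0.0264), as it did with limma voom (0.0252) and with only the 72 h groups fitted (0.0248).

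Cxcl16 showed a smaller difference with little spread. Its level was 148, 114 and 145 CPM with FGF10 and 176, 241 and 222 CPM with BSA at 36 h. At 72 h it was 154, 160 and 136 CPM with FGF10 and 276, 292 and 304 CPM with BSA. FGF10 libraries lay below BSA libraries at both times. The log2 difference was -0.65 ± 0.19 at 36 h (edgeR, adjusted p = 0.0802) and -0.96 ± 0.19 at 72 h (adjusted p = 0.0115), so it fell at 72 h, where the level was 1.94-fold lower. Leaving out BSA 72 h replicate 3 or FGF10 72 h replicate 4 took the adjusted p to 0.0513 and 0.0799, and leaving out 0 h replicate 1 brought the 36 h value to 0.0224. The 36 h difference also passed with limma voom (0.0149), DESeq2 (0.037) and no filter on low counts (0.0328). With 2_1 and 2_2 summed the 72 h difference was -0.97 (adjusted p = 0.0431). Cxcl16 shares 552 of its 3021 exon bases with Zmynd15 on the opposite strand, and unstranded counts of the 2 cannot be told apart there. Zmynd15 had 671 counts over all libraries.

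**Figure D1:**
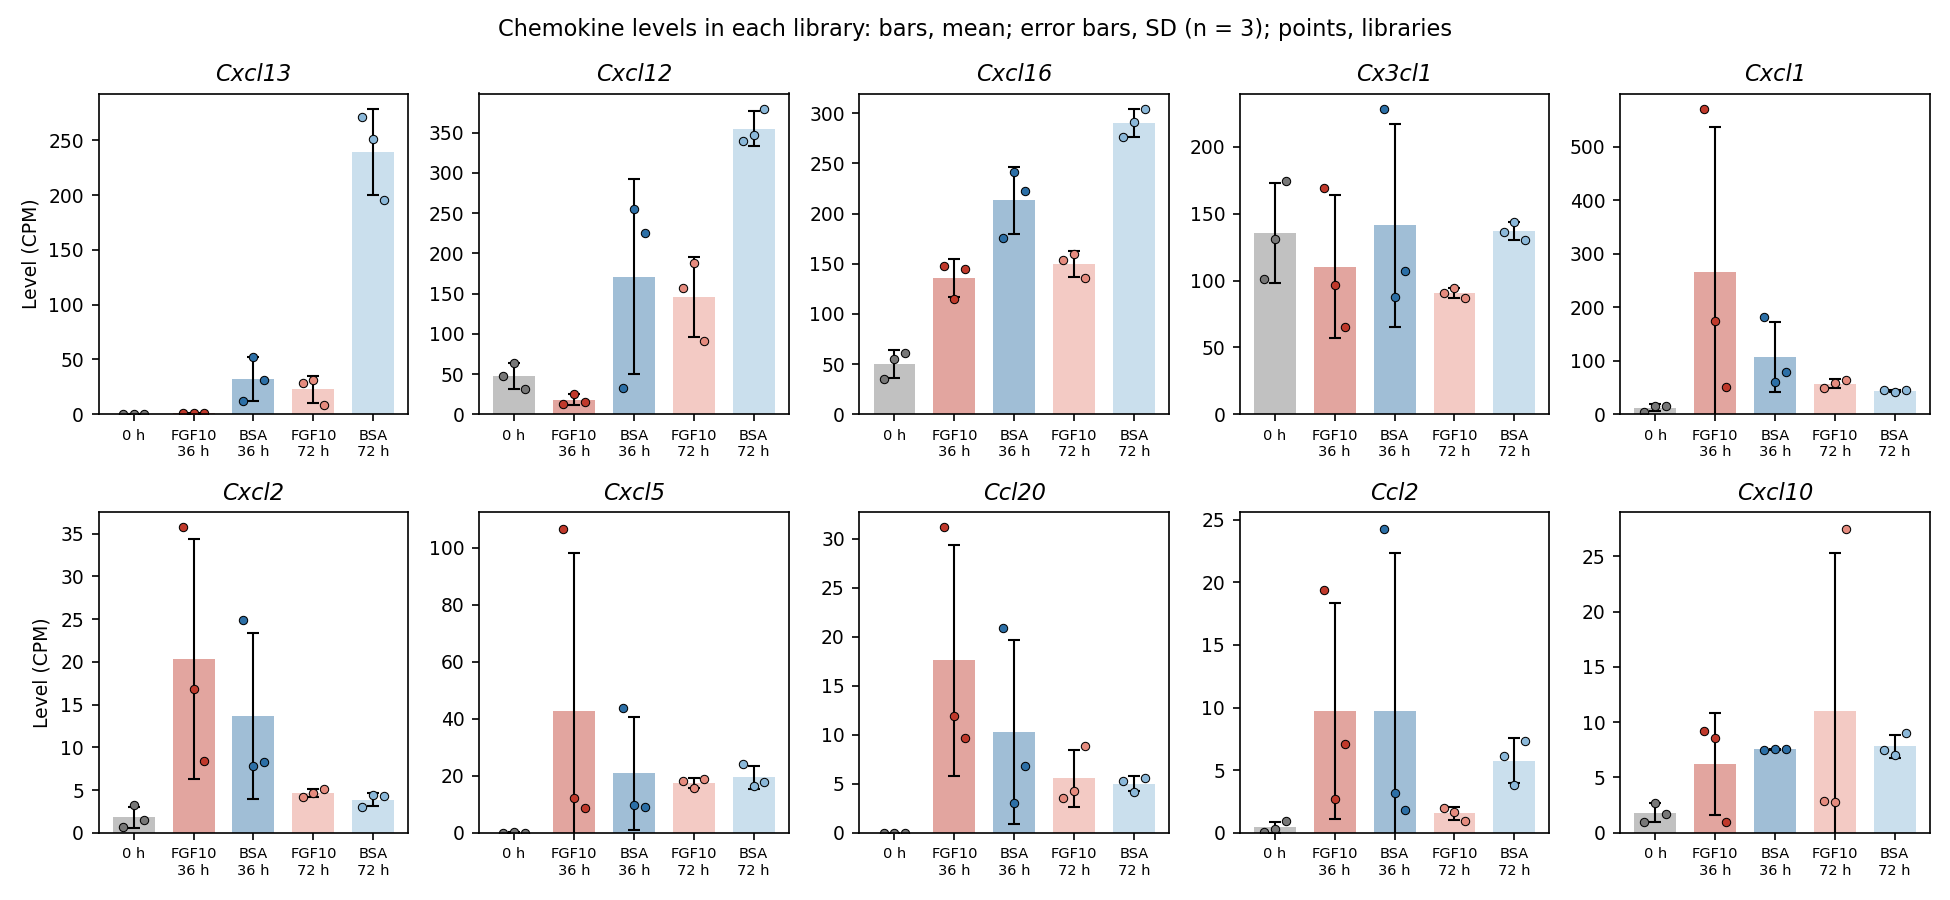
Levels of the 10 chemokines in CPM (vertical axes, linear, from 0) in the groups 0 h, FGF10 36 h, BSA 36 h, FGF10 72 h and BSA 72 h; bars are means, error bars SD of 3 libraries with lower ends cut at 0, and points single libraries. Cxcl13 reached 196 to 271 CPM in BSA libraries at 72 h and stayed at or below 1.58 CPM in FGF10 libraries at 36 h and in those at 0 h, while Cxcl1, Cxcl2, Cxcl5, Ccl20 and Ccl2 each had 1 high library in both groups at 36 h.

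In all, 0 of the 10 members rose and 2 fell with FGF10 at 36 h, when 0.954% of all tested genes rose and 1.39% fell. At 72 h 0 rose and 2 fell, when 3.01% of all tested genes rose and 2.98% fell. Since the members were chosen with earlier results of these data known, their counts beside these shares are a description only. The members' median log2 difference was -0.14 at 36 h and -0.37 at 72 h, against 0 and -0.01 over all tested genes. At an unadjusted p under 0.05, edgeR counted 0 members higher and 3 lower at each time. Over all tested genes it counted 1540 higher and 1858 lower at 36 h, and 2082 higher and 2175 lower at 72 h. Among the members DESeq2 called 0 higher and 3 lower at 36 h, and 0 higher and 2 lower at 72 h. It gave no adjusted p for Cxcl5 and Cxcl10 in any comparison. The limma voom fit called 3 higher (Ccl20, Cxcl1 and Cxcl2) and 3 lower (Cxcl13, Cxcl12 and Cxcl16) at 36 h. At 72 h it called 0 higher and 4 lower (Cxcl13, Cxcl12, Cxcl16 and Cx3cl1). Over all tested genes limma voom called 695 higher and 765 lower at 36 h, and 2570 higher and 2341 lower at 72 h. DESeq2 called 474 genes higher and 614 lower at 36 h, and 962 higher and 1015 lower at 72 h.

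The neutrophil attractants spread widely at 36 h. Cxcl1 had 571, 174 and 51.2 CPM with FGF10, against 182, 60.6 and 78.6 CPM with BSA, and the log2 difference of 1.31 ± 0.71 did not pass (edgeR, adjusted p = 0.354). Cxcl2 had 35.7, 16.8 and 8.41 CPM with FGF10 and 24.9, 7.79 and 8.27 CPM with BSA. Cxcl5 had 107, 12.3 and 8.86 CPM with FGF10 and 43.7, 9.86 and 9.10 CPM with BSA. In all 3 genes the groups overlapped, and replicate 1 was the highest library in both. Ccl20 gave 31.2, 11.9 and 9.68 CPM with FGF10, against 20.9, 3.08 and 6.78 CPM with BSA, and Ccl2 gave 19.4, 2.69 and 7.09 CPM with FGF10, against 24.3, 3.14 and 1.84 CPM with BSA. Replicate 1 was again the highest of both groups.

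The value for these 5 genes at 36 h thus depended on which replicate 1 libraries were in the fit. Since replicate 1 was the highest of both groups, leaving it out of 1 group alone shifts the value by construction. FGF10 36 h replicate 1 was the highest of its group for 8 of the 10 members, and BSA 36 h replicate 1 was the highest of its group for 6 and the lowest for the other 4, Cxcl13, Cxcl12, Cxcl10 and Cxcl16. Without FGF10 36 h replicate 1 the log2 difference became 0.06 for Cxcl1, -0.12 for Cxcl2, -0.99 for Cxcl5, 0.07 for Ccl20 and -1 for Ccl2. Without BSA 36 h replicate 1 it became 1.94 for Cxcl1, 1.35 for Cxcl2, 2.17 for Cxcl5, 1.84 for Ccl20 and 1.97 for Ccl2. None of these values passed the edgeR test, and their adjusted p ran between 0.124 and 0.97. With all libraries and the replicate number as a block, the value was 1.15 for Cxcl1, 0.66 for Cxcl2 and 0.68 for Cxcl5. It was 0.67 for Ccl20 and 0 for Ccl2 in that fit, and none of the 5 passed (edgeR, adjusted p = 0.188 to 0.999). Cxcl13 was called without either library, at -4.81 without FGF10 replicate 1 (adjusted p = 0.0366) and -5.34 without BSA replicate 1 (adjusted p = 0.00285).

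At 72 h Cxcl1, Cxcl2 and Cxcl5 were tight, while Ccl20 with FGF10 and Ccl2 in both groups spread more. Cxcl1 had 48.3, 58.3 and 64.4 CPM with FGF10 and 45.4, 41.6 and 44.5 CPM with BSA, without overlap, and its log2 difference of 0.38 ± 0.71 did not pass (edgeR, adjusted p = 0.8). The standard error comes from a spread shared over all 15 libraries, which carries the wide 36 h values. Cxcl2 stood between 4.17 and 5.12 CPM with FGF10 and between 2.98 and 4.42 CPM with BSA, and Cxcl5 between 15.6 and 18.8 CPM with FGF10 and between 16.3 and 24.1 CPM with BSA. Ccl20 had 3.53, 4.31 and 8.90 CPM with FGF10 and 5.29, 4.18 and 5.6 CPM with BSA. Ccl2 had 1.99, 1.69 and 0.975 CPM with FGF10, below the 6.11, 3.83 and 7.33 CPM with BSA, at a log2 difference of -1.90 ± 1.03 (edgeR, adjusted p = 0.297). A fit of only the FGF10 and BSA libraries of 72 h called 6 members, among them Ccl2, Cx3cl1 and Cxcl1. That fit called 5025 genes in all, while the fit of all 15 libraries called 546 higher and 541 lower.

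The membrane-bound Cx3cl1 had the smallest range of group means, 0.59 on the log2 scale over the 5 groups, although its libraries differed 2.61-fold with FGF10 and 2.6-fold with BSA at 36 h. It had 169, 96.9 and 65.0 CPM with FGF10 and 229, 87.9 and 108 CPM with BSA at 36 h, with overlap. At 72 h it had 90.4, 94.4 and 87.4 CPM with FGF10, all below the 136, 144 and 130 CPM with BSA. The log2 difference at 72 h was -0.59 ± 0.36 (edgeR, adjusted p = 0.349). Cxcl10 had 9.21, 8.61 and 0.949 CPM with FGF10 and 7.49, 7.56 and 7.55 CPM with BSA at 36 h, and replicate 4 stood alone at the low end. At 72 h Cxcl10 had 2.89, 2.79 and 27.5 CPM with FGF10 and 7.44, 7.01 and 9.01 CPM with BSA, and here replicate 4 stood alone at the high end. The log2 difference at 72 h was 0.51 ± 0.84 (adjusted p = 0.768) and -1.46 without that library. Cxcl10 shares 133 exon bases with Art3 on the opposite strand, which had 304 counts over all libraries.

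**Figure D2:**
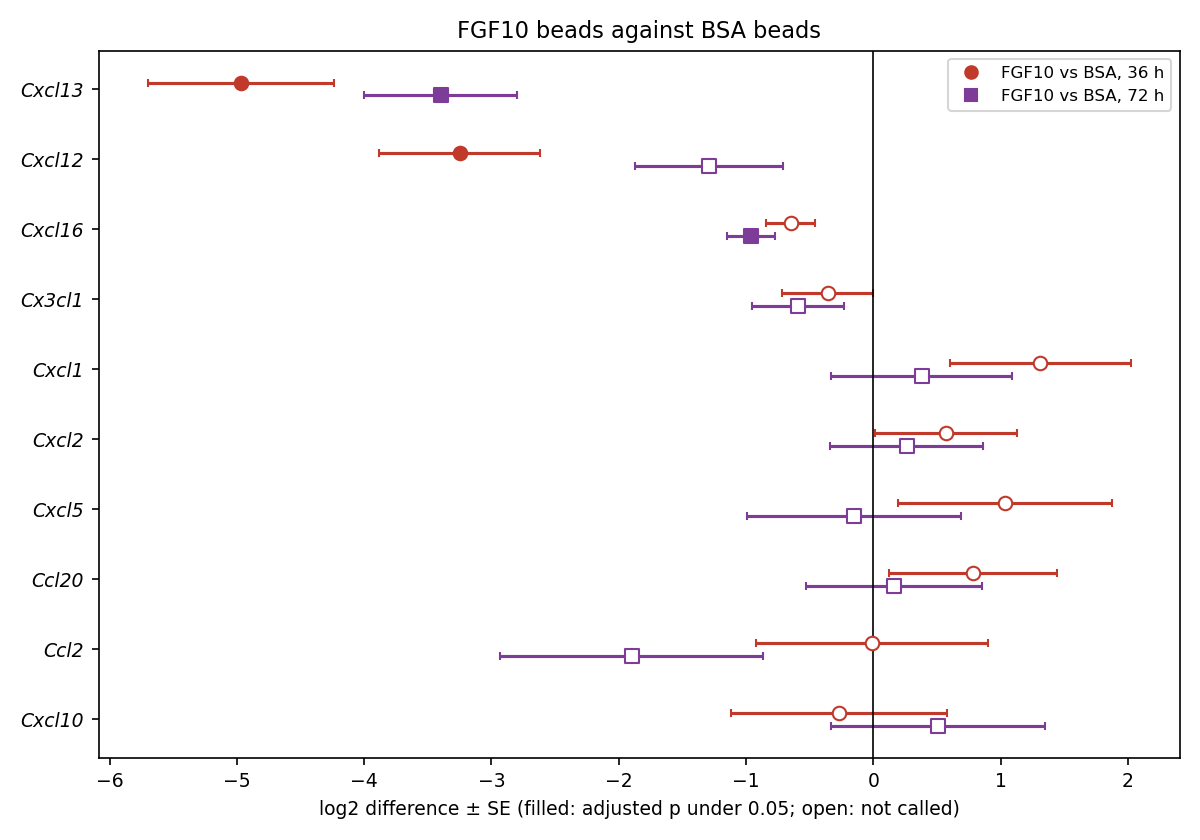
Log2 difference FGF10 over BSA (horizontal axis, error bars SE) of each chemokine at 36 h (circles) and 72 h (squares), from 3 libraries per group; filled symbols passed an adjusted p under 0.05. Cxcl13 lay at -4.97 at 36 h and -3.40 at 72 h, and called values are all below 0.

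The effect of FGF10 was not shown to differ between the times for any member. The difference of the 2 effects (72 h minus 36 h) gave 0 calls among the members and 0% of all tested genes in either direction by edgeR. Before adjustment, Cxcl12 alone passed 0.05 among the members, at 1.96 ± 0.82 (edgeR, adjusted p = 0.891), and over all genes 492 were higher and 506 lower. DESeq2 called 9 genes each way and limma voom 0, and neither called a member. For Cxcl13 the difference was 1.57 ± 0.91 (edgeR, adjusted p = 0.909).

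The summed markers of 4 other cell types were lower with FGF10 at 72 h, where Cxcl13 and Cxcl16 fell, and at 36 h the sums overlapped between the groups except for adipocyte markers. The summed level of 12 macrophage and leukocyte markers was 79.4 to 211 CPM with FGF10 and 132 to 189 CPM with BSA at 36 h. At 72 h it was 79.4 to 132 CPM with FGF10 and 326 to 387 CPM with BSA, and the 0 h libraries had 1256 to 1628 CPM. For 10 fibroblast markers it was 14.7 to 29.4 CPM with FGF10 and 25.0 to 46.0 CPM with BSA at 36 h. By 72 h this sum was 13.1 to 35.5 CPM with FGF10 and 42.5 to 93.0 CPM with BSA, and the 0 h libraries had 96.8 to 639 CPM. For 10 adipocyte markers it was 20.2 to 28.3 CPM with FGF10 and 43.1 to 93.7 CPM with BSA at 36 h. The 72 h sums were 15.3 to 80.8 CPM with FGF10 and 432 to 443 CPM with BSA, and the 0 h libraries had 77.6 to 571 CPM. For 10 endothelial markers it was 4.57 to 14.7 CPM with FGF10 and 8.45 to 37.4 CPM with BSA at 36 h. The 72 h sums were 3.97 to 13.9 CPM with FGF10 and 44.8 to 115 CPM with BSA, and the 0 h libraries had 45.4 to 236 CPM. Of tested markers, 6 of 8 macrophage and leukocyte, 2 of 9 endothelial, 4 of 9 adipocyte and 0 of 10 fibroblast markers fell with FGF10 at 72 h, and at 36 h 1 adipocyte marker, Lep, fell. The share of all tested genes that fell was 2.98% at 72 h and 1.39% at 36 h. For the fibroblast list edgeR counted 6 lower at 72 h at an unadjusted p under 0.05, limma voom called 3 and DESeq2 called 4. Over all tested genes these counts were 2175, 2341 and 1015 lower. The marker at 0 was Cd3e, of T cells, in the BSA 36 h and FGF10 72 h groups, and Lep in the FGF10 36 h group. Single genes carried some sums. Cd74, an antigen presentation gene, averaged 23.1 CPM with BSA at 72 h and 1210 CPM at 0 h, and Fabp4, a fatty acid carrier, 273 CPM with BSA at 72 h and 342 CPM at 0 h. Other markers ran the other way. The macrophage genes Lyz2 and Cd68 rose with BSA at 72 h against 0 h, to 243 CPM against 85.2 CPM and to 45.6 CPM against 13.6 CPM, and 5 adipocyte markers rose, among them Adipoq, at 21.2 CPM against 0.239 CPM, and Lpl, at 104 CPM against 8.72 CPM. The part of these markers in the differences of the chemokines was not tested, and fewer cells of a type and less RNA per cell cannot be told apart in bulk samples.

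**Figure D3:**
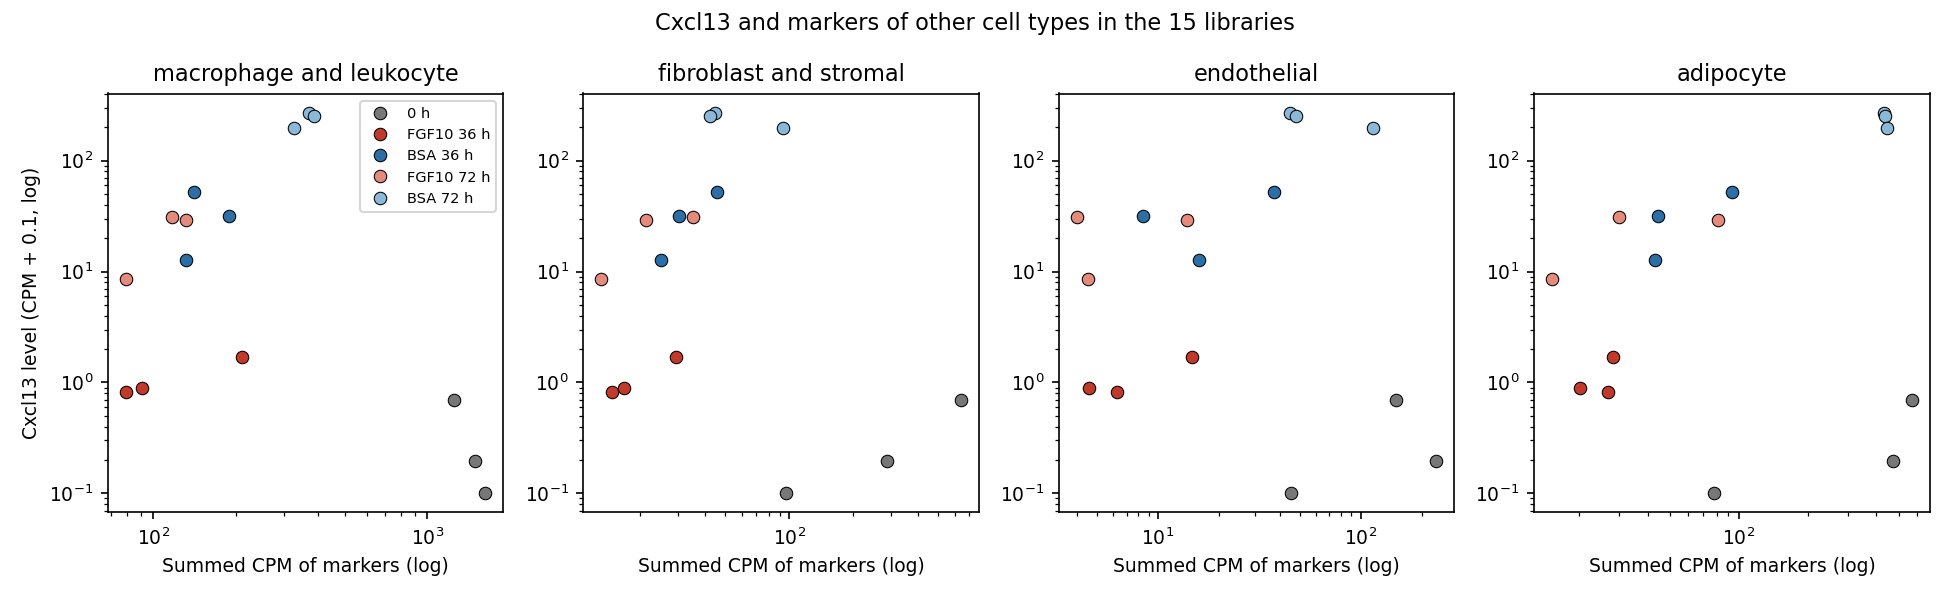
Cxcl13 level (CPM + 0.1, log axis) against the summed CPM of macrophage and leukocyte, fibroblast, endothelial and adipocyte markers (log axes) in the 15 libraries, coloured by group. The BSA 72 h libraries combine 196 to 271 CPM of Cxcl13 with macrophage sums of 326 to 387 CPM, and the 0 h libraries combine at most 0.591 CPM with sums of 1256 to 1628 CPM, of which Cd74 alone makes up a mean of 1210 CPM.

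Most members were higher at 36 h and 72 h than at 0 h. Against 0 h, 6 of the 10 rose with FGF10 at 36 h, 8 with BSA at 36 h, 5 with FGF10 at 72 h and 6 with BSA at 72 h, and 0 fell by edgeR in any of the 4 comparisons. Over all tested genes, 19.3% rose and 20.5% fell with FGF10 at 36 h, 12.7% rose and 14.4% fell with BSA at 36 h, 13.8% rose and 16% fell with FGF10 at 72 h, and 12.2% rose and 13% fell with BSA at 72 h. At an unadjusted p under 0.05 edgeR counted 1 member lower, Cxcl12 with FGF10 at 36 h (adjusted p = 0.0823), which DESeq2 called and limma voom did not. Over all tested genes 4503 were lower in that comparison before adjustment. The 4 comparisons share the 3 libraries of 0 h. Since the members were chosen with earlier results known, their counts beside the shares of all genes are again a description only.

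Cxcl13 rose by 6.81 ± 0.87 on the log2 scale with BSA at 36 h and by 9.71 ± 0.90 with BSA at 72 h (edgeR, adjusted p = 0.000179 and 1.78e-05). With FGF10 it had a log2 difference of 1.84 ± 1.11 at 36 h, which did not pass (adjusted p = 0.207), and rose by 6.31 ± 0.87 at 72 h (adjusted p = 0.000244). The 0 h group held 15 Cxcl13 counts in all, most of them in replicate 1. Without that library these log2 differences were 9.55 and 12.44 for BSA and 4.57 and 9.04 for FGF10 at 36 h and 72 h, with the same calls. Without 0 h replicate 4, which had no counts, they were 6.22 and 9.11 for BSA and 1.25 and 5.72 for FGF10. Cxcl12, at 47.2, 64.0 and 31.4 CPM at 0 h, rose by 2.91 ± 0.62 with BSA at 72 h (adjusted p = 0.00476). With BSA at 36 h it rose by 1.85 ± 0.59 (adjusted p = 0.0372) although the groups overlapped. That call was lost in 9 of the 15 fits that left out 1 library (adjusted p = 0.0508 to 0.124). Those left out each 0 h or BSA 72 h library, BSA 36 h replicate 2 or 3, or FGF10 36 h replicate 4. It was also lost with 2_1 and 2_2 summed (edgeR, adjusted p = 0.0503). With FGF10 the Cxcl12 difference was -1.40 ± 0.60 at 36 h, every library below those of 0 h. At 72 h the Cxcl12 difference was 1.62 ± 0.59 (adjusted p = 0.0823 and 0.0579 at 36 h and 72 h). Both of these passed without BSA 36 h replicate 1 (adjusted p = 0.00345 and 0.00157).

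Cxcl16, at 34.9, 55.4 and 61.3 CPM at 0 h, rose in all 4 comparisons, by 1.43 ± 0.19 with FGF10 and 2.08 ± 0.20 with BSA at 36 h, and by 1.57 ± 0.19 with FGF10 and 2.52 ± 0.20 with BSA at 72 h. The largest adjusted p of the 4 was 5.88e-05 by edgeR. Every later library lay above every 0 h library. Cx3cl1, at 101, 131 and 175 CPM at 0 h, passed in none, with log2 differences of -0.30 and -0.58 for FGF10 and 0.06 and 0.01 for BSA at 36 h and 72 h. Before adjustment edgeR counted 0 of these 4 under 0.05, and neither limma voom nor DESeq2 called any.

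Ccl20 had 0 counts in the 3 libraries of 0 h and was present in each later library, between 3.08 and 31.2 CPM. Set against a floor of 3 counts over the 0 h group, it was at least 298-fold higher with FGF10 at 36 h and 176-fold with BSA at 36 h, and at least 100-fold with FGF10 and 87.6-fold with BSA at 72 h. Without replicate 1, the highest library of both groups, the 36 h bounds were 189-fold with FGF10 and 84.8-fold with BSA. Cxcl5 had 3 counts at 0 h. Its ratio to 0 h was 703 with FGF10 at 36 h (exact 95% interval 240 to 3410), 359 with BSA at 36 h (123 to 1750), 308 with FGF10 at 72 h (105 to 1500) and 342 with BSA at 72 h (117 to 1660), counting error only. Replicate 1 held 1632 of the 1996 Cxcl5 counts with FGF10 and 735 of the 1064 with BSA at 36 h. Without it the ratio was 186 with FGF10 (63.1 to 906) and 165 with BSA (56 to 805). Both genes rose in all 4 edgeR comparisons, with adjusted p between 0.000331 and 0.0028. For Cxcl5, limma voom gave adjusted p between 0.0912 and 0.174 in the 4.

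Cxcl1 had 5.11, 16.4 and 15.7 CPM at 0 h and rose by 4.44 ± 0.82 on the log2 scale with FGF10 at 36 h and by 3.13 ± 0.78 with BSA at 36 h (edgeR, adjusted p = 0.00147 and 0.0112). Cxcl2 had 0.718, 3.19 and 1.49 CPM at 0 h and rose by 3.61 ± 0.66 with FGF10 and by 3.03 ± 0.65 with BSA beads at 36 h (adjusted p = 0.00106 and 0.00424). Without replicate 1 of the group, the 36 h values were 3.19 with FGF10 beads and 2.49 with BSA beads for Cxcl1, and 2.91 with FGF10 beads and 2.25 with BSA beads for Cxcl2, all still called, and without 0 h replicate 2 those of Cxcl2 were 4.22 and 3.65. At 72 h the Cxcl1 difference was 2.22 ± 0.75 with FGF10 beads and 1.84 ± 0.75 with BSA beads (adjusted p = 0.0448 and 0.0972). The first call was lost in 11 of the 15 fits without 1 library, all but those without FGF10 36 h replicate 1 or 4 or BSA 36 h replicate 1 or 2 (adjusted p = 0.0553 to 0.124). The second was gained without FGF10 36 h replicate 1 or 4 (0.0369 and 0.0363). It was also gained with limma voom (adjusted p = 0.0188), DESeq2 (0.0439) and only the compared groups fitted (edgeR, 0.0292). With 2_1 and 2_2 summed the first call was also lost (edgeR, adjusted p = 0.0579). Cxcl2 had 1.48 ± 0.66 with FGF10 and 1.22 ± 0.65 with BSA at 72 h, neither of which passed (adjusted p = 0.109 and 0.203). Reads shared between near-identical stretches of Cxcl1, Cxcl2 and Cxcl3 were not assigned, so levels of these paralogs are uncertain to that extent.

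Ccl2 had 0.0423, 0.290 and 0.935 CPM at 0 h, 21 counts in all. It rose by 4.52 ± 1.21 with FGF10 and 4.53 ± 1.21 with BSA at 36 h (edgeR, adjusted p = 0.0117 and 0.0158). It rose by 3.77 ± 1.20 with BSA at 72 h (adjusted p = 0.039), and with FGF10 at 72 h it differed by 1.88 ± 1.29 without passing (adjusted p = 0.303). None of these 3 calls held with limma voom, at adjusted p = 0.0541 for FGF10 and 0.197 for BSA at 36 h and 0.0969 for BSA at 72 h. Without FGF10 36 h replicate 1 the value for FGF10 at 36 h was 3.53, and without 0 h replicate 1 it was 3.83, both still called. Without BSA 36 h replicate 1 the value for BSA at 36 h was 2.55 (adjusted p = 0.069), and that call was also lost without 0 h replicate 1 or 2 (0.0538 and 0.0518). The call for BSA at 72 h was lost in 8 of the 15 such fits, those without 0 h replicate 1 or 2, any BSA 72 h library, FGF10 72 h replicate 2 or 3, or FGF10 36 h replicate 4 (adjusted p = 0.0503 to 0.125). With 2_1 and 2_2 summed the BSA 72 h call was lost as well (edgeR, adjusted p = 0.0635). Without 0 h replicate 4, the largest value at 0 h, the log2 difference was 6.21 for FGF10 and 6.22 for BSA at 36 h, and 5.46 for BSA at 72 h. Cxcl10 had 1.01, 2.71 and 1.71 CPM at 0 h and passed in none of the 4, with log2 differences between 1.86 and 2.69 and adjusted p between 0.0501 and 0.136. Leaving out FGF10 72 h replicate 4, its widest library, brought it past the threshold for FGF10 at 36 h (0.0277), BSA at 36 h (0.0201) and BSA at 72 h (0.019), and took FGF10 at 72 h to 0.71 (0.5). FGF10 at 72 h passed without FGF10 72 h replicate 2 or 3, or FGF10 36 h replicate 4 (adjusted p = 0.0287, 0.0288 and 0.0267).

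**Figure D4:**
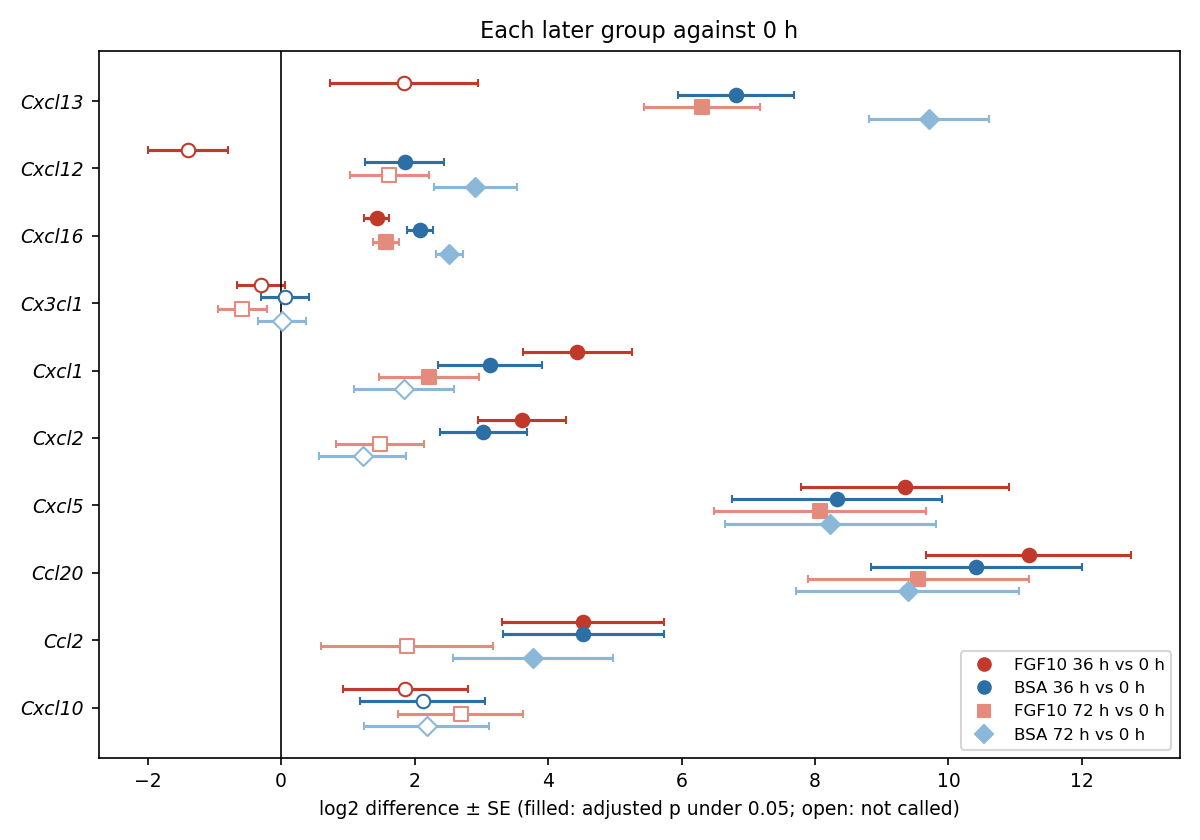
Log2 difference of each later group over 0 h (horizontal axis, error bars SE) for the 10 chemokines, from 3 libraries per group; filled symbols passed an adjusted p under 0.05. Fitted values of Ccl20 and Cxcl5 rest on 0 and 3 counts at 0 h and depend on the prior count. Cxcl13 spans from 1.84 (FGF10 36 h) to 9.71 (BSA 72 h), and Cx3cl1 stays near 0.

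Between 36 h and 72 h with FGF10 beads, Cxcl13 was 4.47 ± 0.73 higher on the log2 scale at 72 h (edgeR, adjusted p = 0.0107) and Cxcl12 was 3.02 ± 0.62 higher (adjusted p = 0.0324). These were the 2 members that rose and 0 fell, when 1.42% of all tested genes rose and 0.491% fell. The edgeR test counted 4 lower at an unadjusted p under 0.05, Ccl20, Cxcl1, Cxcl2 and Ccl2, with log2 differences between -2.65 and -1.65. Over all tested genes it counted 1506 lower. The limma voom fit called 3 of the members lower and DESeq2 called 2, beside 384 and 317 of all genes. The Cxcl12 call was lost in 8 of the 15 fits that left out 1 library, the 3 of BSA 72 h, the 3 of FGF10 36 h and FGF10 72 h replicates 2 and 3 (adjusted p = 0.0529 to 0.118), and Cxcl2 passed without BSA 36 h replicate 1 (0.0437). With 2_1 and 2_2 summed the Cxcl12 call was also lost (edgeR, adjusted p = 0.0545). With BSA beads edgeR called 0 members between 36 h and 72 h, when 0.325% of all tested genes rose and 0.143% fell. At an unadjusted p under 0.05 it counted 2 higher, Cxcl13 and Cxcl16, and 1 lower, Cxcl2, beside 1402 higher and 1502 lower over all tested genes. The limma voom fit called 2 higher and 1 lower, and DESeq2 called 1 each way. Of all genes limma voom called 1168 higher and 1515 lower, and DESeq2 316 higher and 268 lower. Cxcl13 had 2.90 ± 0.59 there (edgeR, adjusted p = 0.0568), every 72 h library above every 36 h library, and passed without 0 h replicate 1 or 4, FGF10 72 h replicate 4 or FGF10 36 h replicate 4 (0.023 to 0.0474).

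Levels per exon length, in CPM per kilobase, gave the order of the chemokines within each group. The length covers all annotated exons, 8176 bases for Cxcl12 and 1138 to 3930 for the others, and the order depends on it. In CPM without length, Cxcl12 had the highest mean with BSA at 72 h, 355, above Cxcl16 with 290 and Cxcl13 with 240. At 0 h Cx3cl1 led with 34.5, above Cxcl16 with 16.7, and Cxcl1 with 6.61 overlapped Cxcl12 with 5.81. At 36 h with FGF10 Cxcl1 led with 141 and Cxcl13 was last with 0.892, just under Cxcl12 with 2.2, and neighbours in the order overlapped except these last 2. At 36 h with BSA Cxcl16 led with 70.6, and each neighbour overlapped the next from there down to Cxcl2, with 6.60. At 72 h with FGF10 Cxcl16 led with 49.6, above Cxcl1 with 30.4. At 72 h with BSA Cxcl13 led with 208, above Cxcl16 with 96.2, Cxcl12 with 43.4, Cx3cl1 with 34.8 and Cxcl1 with 23.4, none of which overlapped its neighbour. Cxcl13 alone made up 42.6% to 51.9% of the summed per-length level of the 10 chemokines in BSA libraries at 72 h, against 0.132% to 1.17% in FGF10 libraries at 36 h, where Cxcl1 made up 23.3% to 58.9%. At 0 h Cx3cl1 made up 46.7% to 56.1%.

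**Figure D5:**
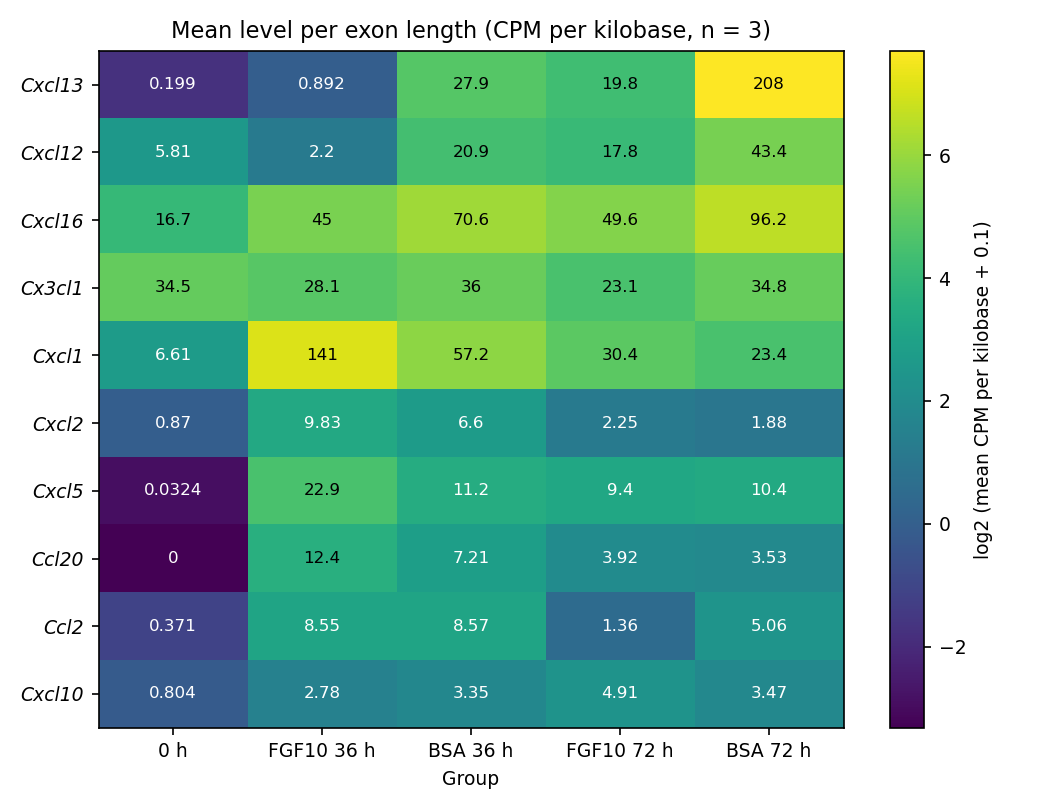
Mean level per exon length (CPM per kilobase, mean of 3 libraries, printed in each cell) of the 10 chemokines in the 5 groups; colour is log2 of that level plus 0.1. The highest mean is that of Cx3cl1 at 0 h, Cxcl1 with FGF10 at 36 h, Cxcl16 with BSA at 36 h and with FGF10 at 72 h, and Cxcl13 with BSA at 72 h. In both groups of 36 h the libraries of the leading chemokine overlapped those of the next.

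Genes with the most similar course over the 5 groups were found by the root mean square difference of their centred mean log2 CPM, among 11045 genes. For Cxcl13 they were Ivl (involucrin, of cornified epithelium) at 0.634 and Klk1 (a kallikrein protease) at 0.699, against a range of 9.81 for Cxcl13 itself. Ivl averaged 5.58 CPM with FGF10 and 148 CPM with BSA at 36 h, 101 CPM with FGF10 and 389 CPM with BSA at 72 h, and 0.595 CPM at 0 h. Klk1, one of a multigene family, had means of 0.600, 12.9, 6.22, 35.7 and 0.0141 CPM in the same order. For Cxcl12 the nearest were Dscam at 0.36 and Bace2 at 0.39, and for Cxcl16 Gstm1 at 0.0997 and Pdxp at 0.107. Cxcl1 and Cxcl2 shared both of theirs, Aldh1a3 (an enzyme of retinoic acid synthesis) and Car2 (a carbonic anhydrase), at 0.184 to 0.252, and were each other's nearest member at 0.304. Ccl20 was nearest to Il1rn, the interleukin 1 receptor antagonist, at 0.357 and to Prl2c5 at 0.396, and Cxcl5 to Klk10 at 0.304 and to Ptgs2, the inducible cyclooxygenase, at 0.576. The others were Fth1 and Pdxp for Cxcl10 (0.135 and 0.152), Lilr4b and Hp for Ccl2 (0.535 and 0.538), and Dapp1 and Stap2 for Cx3cl1 (0.0497 and 0.0501). These genes were picked for their likeness, so it is a description without a test.

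Apart from Ackr3, the main receptors of the members had low levels in the organoids at 36 h and 72 h. Cxcr5, the CXCL13 receptor, had between 0 and 4 counts in any library, Cxcr2 and Ccr6 between 0 and 2, and Cxcr3 reached 18 counts in 1 library of 0 h, and none of the 4 could be tested. Of 22 receptor genes 10 were tested, and edgeR called 0 with FGF10 against BSA at 36 h (median log2 difference -1.08) and 0 at 72 h (-0.87), against medians of 0 and -0.01 over all genes. Of all tested genes 0.954% rose and 1.39% fell at 36 h, and 3.01% rose and 2.98% fell at 72 h. At an unadjusted p under 0.05 edgeR counted 3 receptors lower at each time. At that threshold it counted 1858 of all tested genes lower at 36 h and 2175 lower at 72 h. Among the receptors limma voom called 0 at 36 h and 1 at 72 h, and DESeq2 called 1 at 36 h and 0 at 72 h. Of all tested genes limma voom called 765 lower at 36 h and 2341 lower at 72 h, and DESeq2 614 and 1015. Ackr3, the scavenger of CXCL12, had 13.2, 6.25 and 8.48 CPM with FGF10 and 28.2, 16.8 and 20.5 CPM with BSA at 36 h, without overlap, at -1.23 ± 0.33 (edgeR, adjusted p = 0.0673). At 72 h Ackr3 had 17.96, 17.99 and 12.73 CPM with FGF10 and 23.3, 29.6 and 35.7 CPM with BSA (adjusted p = 0.123). Cxcr4 stood between 0.603 and 1.11 CPM with FGF10 and between 0.952 and 2.80 CPM with BSA at 36 h, and between 0.914 and 2.37 CPM with FGF10 and 3.28 and 3.71 CPM with BSA at 72 h, and Cxcr6 reached 1.21 CPM at most after 0 h.

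Against 0 h, 9 of the 10 tested receptors fell with FGF10 at 36 h, 7 with BSA at 36 h, 7 with FGF10 at 72 h and 6 with BSA at 72 h, beside the shares of all genes given above. Ccr2, the monocyte receptor, had 3.29, 2.61 and 2.86 CPM at 0 h, 157 counts, and 1 count in all 12 later libraries. It was at least 49.5-fold lower with FGF10 at 36 h, and at least 44-fold lower with FGF10 and 53.9-fold lower with BSA at 72 h, by the 3-count floor over the group. Cx3cr1, a receptor of macrophages and some lymphocytes, had 7.18, 7.84 and 9.30 CPM at 0 h and at most 1.85 CPM in any later library. It fell in all 4 comparisons (edgeR, adjusted p between 0.000155 and 0.00192). Of the 8 tested macrophage and leukocyte markers, 6 fell against 0 h with FGF10 and 6 with BSA at 36 h, and 6 fell with FGF10 at 72 h, while with BSA at 72 h 4 fell and 2, Lyz2 and Cd68, rose. Their part in these differences was not tested.

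Some other chemokine genes were lower with FGF10 at 72 h. Of 28 such genes 17 were tested, of which 0 were called at 36 h by edgeR (median -0.67) and 3 fell and 0 rose at 72 h (median -1.23), against medians of 0 and -0.01 over all genes. The shares of all tested genes were 0.954% rising and 1.39% falling at 36 h, and 3.01% rising and 2.98% falling at 72 h. At 36 h edgeR counted 3 lower at an unadjusted p under 0.05, limma voom called 0 and DESeq2 called 1. Over all tested genes these counts were 1858, 765 and 614 lower. Ccl5, which draws T cells, had 1.99, 1.60 and 2.38 CPM with FGF10 and 4.21, 5.36 and 5.95 CPM with BSA at 72 h (-1.36 ± 0.34, edgeR, adjusted p = 0.0295). Ccl7, a monocyte attractant, had 0.898, 0.422 and 0.305 CPM with FGF10 and 3.03, 2.18 and 7.50 CPM with BSA (-2.94 ± 0.73, adjusted p = 0.0312). Cxcl17, of mucosal epithelium, had 5.39, 4.65 and 2.62 CPM with FGF10 and 10.2, 11.6 and 7.56 CPM with BSA (-1.22 ± 0.32, adjusted p = 0.0368). Since these 3 genes were named for being called, their lack of overlap between the groups is a description only. The count was 0 without any 1 of the FGF10 or BSA libraries of 72 h, and with 2_1 and 2_2 summed.

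Among 24 tested genes of inflammatory induction, 0 were called at 36 h, and 1 rose and 1 fell at 72 h. Shares over all tested genes were close to this, with 0.954% rising and 1.39% falling at 36 h. At 72 h 3.01% rose and 2.98% fell. Before adjustment, edgeR counted 1 higher and 3 lower at 36 h, limma voom called 3 higher and 1 lower, and DESeq2 called 0. Over all tested genes edgeR counted 1540 higher and 1858 lower before adjustment, and limma voom called 695 higher and 765 lower. The median was -0.05 at 36 h and -0.16 at 72 h, also with Il6 at its bound. Il33, an alarmin, had 16.8, 21.9 and 31.7 CPM with FGF10 and 2.05, 1.65 and 3.12 CPM with BSA at 72 h (3.37 ± 0.66, edgeR, adjusted p = 0.0138). Il6, a cytokine, had 0 counts with FGF10 and 35 with BSA at 72 h, at least 9.51-fold lower by the floor of 3 counts over the group (adjusted p = 0.0492). The list's count was 0 without any 1 BSA 72 h library or FGF10 72 h replicate 4, and with 2_1 and 2_2 summed. It was 1 without FGF10 72 h replicate 2 or 3, 0 h replicate 4, BSA 36 h replicate 2 or FGF10 36 h replicate 1. Of 20 interferon response genes 0 were called at either time, with medians of -0.23 and -0.05. Before adjustment edgeR counted 0 under 0.05 at both times, limma voom called 0 and 1, and DESeq2 called 0.

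Genes that cut, bind or present chemokines numbered 18, all tested. Of these 2 rose and 1 fell at 36 h, and 4 rose and 0 fell at 72 h, with medians of 0.03 and 0.11. Among all tested genes 0.954% rose and 1.39% fell at 36 h, and 3.01% rose and 2.98% fell at 72 h. Their medians were 0 and -0.01. Sdc1, whose heparan sulfate chains hold chemokines at the cell surface, had 444, 528 and 459 CPM with FGF10 and 192, 182 and 206 CPM with BSA at 36 h (1.30 ± 0.18, edgeR, adjusted p = 0.00272). At 72 h Sdc1 had 395, 479 and 698 CPM with FGF10 and 179, 193 and 164 CPM with BSA (1.55 ± 0.19, adjusted p = 0.00061). Timp1, an inhibitor of metalloproteases, was higher by 1.30 ± 0.25 at 36 h and 1.11 ± 0.25 at 72 h (adjusted p = 0.0141 and 0.0206). Ext1, which polymerises heparan sulfate, was higher by 0.55 ± 0.14 at 72 h (adjusted p = 0.0305). Mmp2, a protease that trims CXCL12, had 8.03, 4.55 and 5.76 CPM with FGF10 and 17.8, 14.5 and 15.8 CPM with BSA at 36 h (-1.39 ± 0.30, adjusted p = 0.026). Mmp9, a related protease, had 0.321, 7.77 and 4.08 CPM with FGF10 at 72 h and 3 counts in all with BSA, a ratio of 67.1 (exact 95% interval 22.5 to 329, adjusted p = 0.00819). Without BSA 36 h replicate 2 or 3 the count at 36 h was 1. It was 2 at 72 h without any 1 BSA 72 h library or without FGF10 72 h replicate 3 or 4. With 2_1 and 2_2 summed it was also 2 at 72 h.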

How the data were processed

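RNA-seq libraries of 15 mouse organoid samples were compared in 5 groups of 3. The values used are raw fragment counts per gene, deposited by the authors as 1 table. The table was written by featureCounts 2.0.1 from paired fragments over exons, grouped by gene name and without strand, per the file headers, and its gene length column gave levels per kilobase. The library kit keeps strand, per the labels' protocols, so antisense overlap could not be separated in these counts. Per the submitters' processing notes, FastQC, cutadapt 1.9.1, HISAT2 2.2.1, HTSeq, DESeq2 and the assembly GRCm39 were used. For counting, HTSeq stands there and featureCounts in the header.

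Low genes were dropped by filterByExpr (at least 10 counts, total at least 15), leaving 18140 of 54456. After TMM scaling, edgeR 4.0.16 in R 4.3.3 gave quasi-likelihood tests (robust) from 1 fit to all 5 groups, with 10 residual degrees of freedom. The biological coefficient of variation, common to all genes, was 0.234. Calls needed an adjusted p (Benjamini-Hochberg, all tested genes) below 0.05. Each SE was computed as the size of the log2 difference divided by the root of its F statistic. There were 9 comparisons. Intervals and floors cover counting error only, and the floor is 3 counts over a group. Other fits were limma voom (limma 3.58.1) and DESeq2 1.42.0, other scalings and filters, a replicate block, summed libraries 2_1 and 2_2, the compared groups alone, and each library left out. The fits were tested on simulated data.

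The members and lists were chosen with earlier results of these data known. Besides the 10 members, genes named are those called in the pathway lists for FGF10 against BSA (up to 6 per list by adjusted p), the members' main receptors, and for each member the 2 genes of most similar course with at least 5 CPM in their highest group. Promoters are from RefSeq. The interferon element and TATAAA were searched after the data had been seen. Protein sequences were planned and not used here.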

Additional observations from a re-analysis of the deposited data

How the results depend on the processing

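Each of the 10 chemokines in each of 9 comparisons was recomputed under 23 alternatives, 22 for Cxcl5 and Cxcl10, for which DESeq2 gave no adjusted p. Of 2052 values 1933 kept their side of the threshold, 55 became called and 64 lost a call. Of the 2052, 52 had the other sign, 0 of them called. Cxcl13 with FGF10 against BSA was called in all 23 at 36 h (largest adjusted p 0.0366) and at 72 h (0.0487), Cxcl12 at 36 h in 18 and Cxcl16 at 72 h in 21. The members called with FGF10 against BSA at 36 h numbered 2, and were 1 with only the groups compared, 3 without a filter, 3 with DESeq2, 6 with limma voom and 1 to 3 with a library left out. At 72 h they numbered 2, and were 6 with only the groups compared, 4 with limma voom and 1 to 3 with a library left out. For FGF10 at 72 h against 36 h they numbered 2, and were 1 without a filter, 1 with 2_1 and 2_2 summed, 5 with limma voom, 4 with DESeq2 and 1 to 3 with a library left out. For BSA at 72 h against 36 h they numbered 0, and were 1 with only the groups compared, 3 with limma voom, 2 with DESeq2 and 0 to 1 with a library left out. Over all genes, 173 rose and 252 fell at 36 h (in all 78 with only the groups compared, 1460 with limma voom, 1088 with DESeq2, 127 to 852 with a library left out) and 546 rose and 541 fell at 72 h (in all 277 with 2_1 and 2_2 summed, 5025 with only the groups compared, 4911 with limma voom, 1977 with DESeq2, 148 to 1950 with a library left out). At 72 h the other chemokines called numbered 3, and were 1 without a filter, 0 summed, 8 with only the groups compared, 10 with limma voom and 6 with DESeq2. The inducers called there numbered 2, and were 1 with DESeq2 size factors or the block, 0 summed, 8 with only the groups compared and 4 with limma voom, and the processing genes numbered 4, and were 2 summed. Receptors and interferon genes called there numbered 0, and were 3 and 2 with only the groups compared and 1 each with limma voom. At 36 h limma voom called 4 inducers against 0, and DESeq2 called 1 other chemokine and 1 receptor against 0 and 5 processing genes against 3. The cause of these shifts was not tested. With a replicate block the members called stayed 2 and 2, with Cxcl13 at -4.27 (adjusted p = 0.0131) at 36 h, and Cxcl12 at -2.62 (0.0163). Deviations of same-numbered libraries correlated at 0.45 and 0.29 in the 2 pairs of 36 h and at 0 to 0.08 at 72 h. The labels do not say what a number stands for, so the pairing was not established and the fit without the block is reported. The block took Cxcl12 out of the calls for BSA at 36 h against 0 h (8 members became 7) and into those for FGF10 at 36 h against 0 h (6 became 7). Depth limits Ccl20, Cxcl5, Cxcl13 and Ccl2 at 0 h, which had 0, 3, 15 and 21 counts.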

Other observations

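Cxcl3, a paralog of Cxcl1 and Cxcl2, was looked at after its values were seen. It had 13.1, 1.75 and 1.14 CPM with FGF10 and 12.01, 1.01 and 1.61 CPM with BSA at 36 h, and replicate 1 was the highest library of both groups, as for Cxcl1 and Cxcl2. At 72 h it had 0.513, 0.507 and 1.95 CPM with FGF10 and 0.257, 0.295 and 0.289 CPM with BSA, and the 0 h group held 3 counts.

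Cxcl14 and Cxcl15, chemokines of epithelium, were the most abundant of the other chemokines named here and were also chosen after their values were seen. Cxcl14 averaged 48.5 ± 20.4 CPM with FGF10 and 57.4 ± 31.2 CPM with BSA at 36 h, 26.3 ± 7.20 CPM with FGF10 and 78.2 ± 5.28 CPM with BSA at 72 h, and 467 ± 241 CPM at 0 h (SD, n = 3 each). It fell in all 4 comparisons with 0 h by edgeR, with adjusted p between 0.000131 and 0.00258. With FGF10 against BSA at 72 h it was -1.57 ± 0.49 (edgeR, adjusted p = 0.0797), every FGF10 library below every BSA library. Cxcl15 averaged 149 ± 37.5 CPM with FGF10 and 265 ± 144 CPM with BSA at 36 h, 166 ± 48.1 CPM with FGF10 and 388 ± 21 CPM with BSA at 72 h, and 366 ± 223 CPM at 0 h (SD, n = 3 each). Its difference at 72 h was -1.23 ± 0.47 (edgeR, adjusted p = 0.142), again without overlap.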
